A study of Mus musculus with 17 samples.

Results

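The genes described here encode claudins and other tight junction proteins of mouse small intestinal organoids: Cldn2, Cldn3, Cldn4, Cldn7, Cldn15, Cldn23, Tjp1, Ocln and F11r. These 9 genes, of 26422 listed in the deposited tables, were chosen by symbol as a family, with the UMI counts of these same libraries by day, treatment and cell type already in view. Their values in those comparisons therefore describe them and support nothing further. UMI counts were measured in single cells of 17 Seq-Well S3 libraries, an assay that captures the 3′ ends of RNAs from cells in an array of small wells. By the study's methods all organoids came from crypts of C57BL/6 wild-type mice, male and female and 1 to 6 months old, and grew in a medium with EGF, Noggin and R-spondin 1 (ENR). The 2 libraries of day 0 were stem-enriched organoids in ENR+CV (CHIR99021 and valproic acid). At days 0.25, 1, 2, 3, 4 and 6 the organoids were in ENR+CD (CHIR99021 and DAPT, a medium that favours Paneth cells), without a further agent in 7 control libraries or with 160 nM KPT-330 in 8. KPT-330 (selinexor) inhibits XPO1, which exports proteins and RNAs from the nucleus. Day 3 has 2 KPT-330 libraries, day 6 has 2 of each condition, and every other time point has 1 of each. The labels do not say that libraries came from separate cultures, so p-values measure only the spread between these libraries.

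Tight junctions seal the space between neighbouring epithelial cells at their apical side and set what passes between them. Claudins are membrane proteins whose strands either form pores, as Cldn2 (cations and water) and Cldn15 (sodium) do in the small intestine, or tighten the barrier, as Cldn3 and Cldn4 are known to. Cldn7 also lies along the lateral membrane, and Cldn23 is a less studied claudin of differentiated intestinal cells. Ocln (occludin) and F11r (junctional adhesion molecule A) are membrane proteins of the same strands, and Tjp1 (ZO-1) is the scaffold that ties them to actin.

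In the GENCODE annotation of GRCm38 (mm10) the single-exon genes Cldn4 (chromosome 5, 134945119 to 134946934, minus strand) and Cldn3 (chromosome 5, 134986214 to 134987472, plus strand) are neighbours 39.3 kb apart. Cldn15 lies on the same chromosome at 136966616 to 136975858. Cldn2 is X-linked (139800828 to 139811386), Cldn7 lies on chromosome 11 (69964779 to 69967885), Cldn23 on chromosome 8 (35824712 to 35826559), Ocln on chromosome 13 (100496507 to 100552718), Tjp1 on chromosome 7 (65296165 to 65527781) and F11r on chromosome 1 (171437535 to 171464603).

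Promoter windows of 250 bases before the transcript start were taken from RefSeq sequences of GRCm38.p6, which hold 8 of the 9 genes. They are shown because 3 of the 6 genes with higher counts under KPT-330 share a short motif there. Of the others with higher counts, Cldn2 and Cldn3 lack it, and Cldn23 has no window in these sequences. The motif was picked with these counts in view, so its share of all windows is a description and no test. The AP-1 motif, TGANTCA searched on both strands, occurs in Cldn4 at 240 and 158 bases before the start, in Cldn15 at 214 and in F11r at 109. None of the windows of Cldn2, Cldn3, Cldn7, Ocln and Tjp1 holds it, and it is found in 6.75% of 32851 windows of the same length. The Cldn2 window instead holds a TATA box (TATAAA, 35 bases before the start, in 12.4% of windows) and the CDX motif TTTATG (244 bases before, in 10.8%). The other motifs searched were the GC box GGGCGG (32.7% of windows), the KLF motif CCACCC (28.1%), the GRHL motif AACCNGTT (1.79%), the HNF1 half-site GTTAAT (6.43%) and the HNF4 motif CAAAGTCCA (0.384%). Positions count from the RefSeq transcript start, which can differ from the outer gene boundary given above and for Cldn2 matches no GENCODE transcript start. A match describes letters only, and no match says only that the letters are not in this window. Each window is printed 5′ to 3′ on the gene's strand, with matches of the AP-1, TATA, CDX, GC box and KLF motifs in capitals, read on either strand.
Cldn4, chr5:134946935-134947184, minus strand: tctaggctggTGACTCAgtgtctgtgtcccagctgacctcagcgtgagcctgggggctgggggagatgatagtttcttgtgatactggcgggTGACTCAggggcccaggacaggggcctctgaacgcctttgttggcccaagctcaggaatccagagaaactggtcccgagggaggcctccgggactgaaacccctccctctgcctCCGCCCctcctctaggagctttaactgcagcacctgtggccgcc
Cldn15, chr5:136967619-136967868, plus strand: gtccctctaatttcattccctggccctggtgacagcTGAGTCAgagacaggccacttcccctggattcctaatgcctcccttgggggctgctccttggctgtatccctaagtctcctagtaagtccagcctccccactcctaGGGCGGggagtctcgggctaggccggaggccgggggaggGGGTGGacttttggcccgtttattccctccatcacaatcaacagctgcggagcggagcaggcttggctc
F11r, chr1:171437311-171437560, plus strand: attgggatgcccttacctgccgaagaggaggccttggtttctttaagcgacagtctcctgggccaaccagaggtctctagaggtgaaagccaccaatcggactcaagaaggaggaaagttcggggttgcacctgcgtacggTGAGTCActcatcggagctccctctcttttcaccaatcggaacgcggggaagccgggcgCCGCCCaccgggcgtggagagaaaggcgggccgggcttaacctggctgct
Cldn2, chrX:139800558-139800807, plus strand: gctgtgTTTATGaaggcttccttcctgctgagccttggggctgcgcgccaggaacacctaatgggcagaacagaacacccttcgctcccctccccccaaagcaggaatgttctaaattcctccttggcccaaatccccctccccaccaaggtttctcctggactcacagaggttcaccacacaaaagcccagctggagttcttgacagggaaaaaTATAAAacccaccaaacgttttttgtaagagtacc

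The libraries held 26229 barcodes, of which the authors kept 19877 cells, 531 to 1547 per library. Kept cells carried 3458887 to 12433109 UMIs per library, and the median cell 2676 to 8463. The epithelial markers Epcam, Cdh1, Krt8 and Vil1 were present in all 17 libraries, at 4.45 to 12.6 UMIs per 10000. Of 8 markers of other tissues, 0 had enough counts for a test, and together they reached at most 0.0383 UMIs per 10000. Their summed range was 0.0146 to 0.0383 in the controls and 0.00672 to 0.0318 under KPT-330. The 5 tuft cell markers summed to 0.0163 to 0.0670 over the libraries, with 1 of 5 tested, Pou2f3, at a log2 fold change of -0.87 with KPT-330 (edgeR adjusted p = 0.0934; -1.12, 0.0266 under library totals). Its part in the values below was not tested. Libraries fell into sets by the number of genes their tables list. It was 19823 to 21652 in the 5 libraries of day 0 replicate 1 and days 0.25 and 1, and 15576 to 17849 in the other 12. A pair of libraries shared a barcode sequence in 14 cases.

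Over all cells, counts of 6 of the 9 genes rose with KPT-330 and 0 fell (edgeR quasi-likelihood test with time point as a factor, Benjamini-Hochberg adjusted p under 0.05 over 11777 genes). Of all genes tested, 29.6% passed, 1764 upward and 1717 downward. The rises were in the barrier claudins Cldn4 and Cldn3, the pore claudins Cldn2 and Cldn15, Cldn23 and F11r, while Cldn7, Ocln and Tjp1 did not pass. The median log2 fold change was 0.41 over the 9 genes and 0.003 over all genes. All 9 passed the filter on low counts. Values below are UMIs per 10000 UMIs of a library. These sums cannot tell more cells of a type apart from more RNA per cell.

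Cldn4 was at 0.777 and 1.97 UMIs per 10000 in the ENR+CV libraries. In the controls it was at 1.54, 1.74, 3.03, 2.73 and 5.70 from day 0.25 to day 4, and at 6.51 and 7.41 at day 6. With KPT-330 it was at 2.78, 2.71 and 3.87 at days 0.25, 1 and 2, at 3.59 and 4.45 at day 3, at 10.6 at day 4, and at 6.93 and 8.90 at day 6. The KPT-330 mean was above the control mean at 6 of 6 time points, with the ranges overlapping at day 6. The fitted log2 fold change was 0.79 (SE 0.099, edgeR adjusted p = 0.000336).

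The pore claudins differed in time but not in sign. Cldn15 was at 1.54 and 1.53 at day 0, at 1.94, 2.25, 2.70, 2.07 and 1.85 in the controls from day 0.25 to day 4, and at 1.58 and 1.78 at day 6. The KPT-330 levels were 2.52, 3.32 and 4.16 at days 0.25, 1 and 2, at 2.99 and 4.17 at day 3, at 3.01 at day 4, and at 1.66 and 2.16 at day 6. By the means it was highest at day 2 in both conditions, and higher with KPT-330 at 6 of 6 time points (log2 fold change 0.76, SE 0.103, edgeR adjusted p = 0.000436). Cldn2 was at 2.79 and 3.33 at day 0, at 2.68, 1.48, 1.23, 0.869 and 0.828 in the controls to day 4, and at 1.83 and 1.18 at day 6. With KPT-330 it was at 2.69, 1.98 and 1.81 at days 0.25, 1 and 2, at 1.33 and 1.70 at day 3, at 1.49 at day 4, and at 2.27 and 1.76 at day 6. At day 0.25 the conditions were nearly equal, and from day 1 the KPT-330 mean was above the control (log2 fold change 0.77, SE 0.160, edgeR adjusted p = 0.00396).

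Cldn23 had few counts, at 0.116 and 0.200 UMIs per 10000 at day 0. In the controls it was at 0.198, 0.279, 0.646, 0.484 and 0.496 to day 4 and at 0.530 and 0.539 at day 6. Under KPT-330 Cldn23 was at 0.319, 0.477 and 1.10 at days 0.25, 1 and 2, at 0.438 and 1.39 at day 3, at 1.18 at day 4, and at 0.540 and 0.452 at day 6. The day 3 KPT-330 libraries lay on either side of the control, and at day 6 the conditions overlapped (log2 fold change 0.89, SE 0.223, edgeR adjusted p = 0.0104). F11r ranged from 0.948 to 2.28 in the controls and from 1.28 to 1.94 with KPT-330, and rose by 0.41 on the log2 scale (SE 0.0943, edgeR adjusted p = 0.00718). Its day 6 controls, 2.08 and 2.28, were above the KPT-330 libraries, 1.90 and 1.80. Cldn3 ranged from 3.19 to 7.96 in the controls and from 4.47 to 8.11 with KPT-330 (log2 fold change 0.34, SE 0.120, edgeR adjusted p = 0.0472). At day 6 it too was lower with KPT-330, at 5.10 and 5.84 against 6.36 and 7.96. Its call was lost in 17 of the 21 fits that left out a library or a time point (log2 fold change 0.27 to 0.44 over the 21, edgeR adjusted p up to 0.176).

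The other 3 genes did not pass. Cldn7 ranged from 1.58 to 3.25 in the controls and from 1.27 to 3.20 with KPT-330 (log2 fold change 0.17, edgeR adjusted p = 0.241). Ocln ranged from 0.930 to 1.07 in the controls and from 0.681 to 1.12 with KPT-330 (0.15, edgeR adjusted p = 0.187). Tjp1 ranged from 0.867 to 1.03 and from 0.650 to 0.986 (0.05, edgeR adjusted p = 0.615). The scaffold gene was lower with KPT-330 at 5 of 6 time points in the unscaled levels, while its fitted value was slightly positive.

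**Figure D1:**
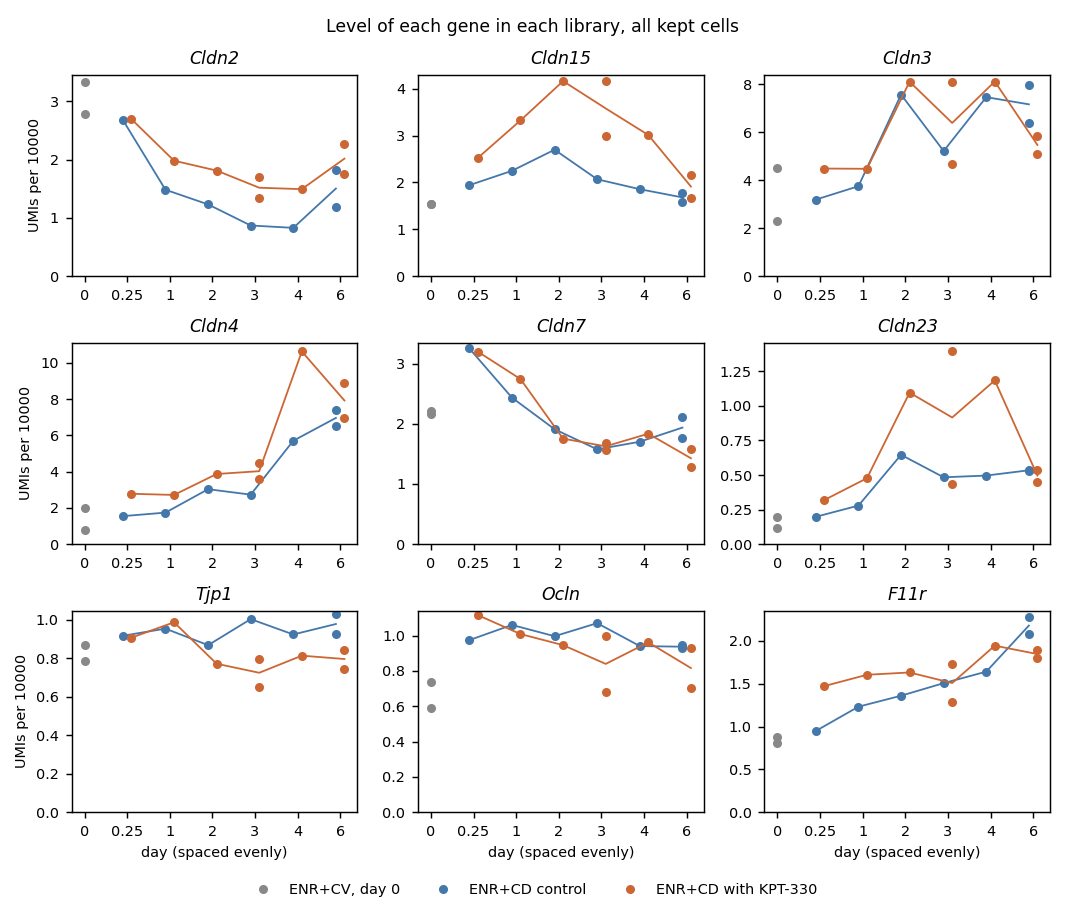
Level of each gene (y axis, UMIs per 10000 UMIs) by day (x axis, time points spaced evenly) in each library; points are libraries, lines join the means of the ENR+CD controls and of the KPT-330 libraries, and grey points are ENR+CV. The KPT-330 line lies above the control line at 6 of 6 time points for Cldn4, Cldn15 and Cldn2, and at 1 of 6 for Tjp1.

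The size of these differences depended on how libraries were scaled. The 20 most abundant genes held 25.9% to 34.2% of the UMIs in the controls and 28.3% to 49.6% with KPT-330, and the TMM factors ran from 1.02 to 1.15 and from 0.715 to 1.11. With library totals instead of TMM factors, the median of all genes moved from 0.003 to -0.26 on the log2 scale, and the calls from 1764 up and 1717 down to 452 up and 4672 down. Cldn4 (0.52, edgeR adjusted p = 0.00309), Cldn15 (0.50, 0.00337), Cldn2 (0.51, 0.00587) and Cldn23 (0.62, 0.0329) still rose under library totals. Cldn3 (0.08, edgeR adjusted p = 0.666) and F11r (0.14, 0.316) no longer passed. Cldn7 (-0.09), Ocln (-0.11) and Tjp1 (-0.21) were below 0 there, with the shift of all genes. All 9 genes lay above the median of all genes under both scalings. On the mean of single-cell log2 values, limma called 4 of the 9 genes, beside 6102 of all 11777 genes. Cldn4, Cldn15 and Cldn23 passed upward and Tjp1 downward (-0.10, limma adjusted p = 0.0135). Cldn2 (0.16, limma adjusted p = 0.0667), F11r (0.02, 0.778) and Cldn3 (-0.01) did not pass.

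A KPT-330 difference that changed between days 0.25 to 2 and days 3 to 6 was not found for these genes. The edgeR interaction called 0 of the 9 genes and 0% of 11777 genes, and DESeq2 called 0 of the 9 and 54 genes in all. At an unadjusted p under 0.05 there were 0 of the 9 and 1283 genes in all.

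In the untreated libraries, 5 of the 9 genes differed between days 0, 0.25 and 1 and days 3, 4 and 6, with 4 libraries on each side (edgeR, 12131 genes tested, 48.7% called). Cldn4 went from 1.51 ± 0.518 to 5.59 ± 2.03 UMIs per 10000 (SD, n = 4 each; log2 fold change 1.96, SE 0.327, edgeR adjusted p = 0.000529). Cldn23 went from 0.198 ± 0.0665 to 0.512 ± 0.0264 (1.42, SE 0.213, edgeR adjusted p = 0.000273). Cldn3 went from 3.44 ± 0.929 to 6.75 ± 1.22 (1.03, SE 0.200, edgeR adjusted p = 0.00136). These claudins and F11r, which went from 0.964 ± 0.188 to 1.88 ± 0.363 (1.01, SE 0.200, edgeR adjusted p = 0.00155), rose. Cldn2 fell by 1.05 on the log2 scale (SE 0.297, edgeR adjusted p = 0.0121), from 2.57 ± 0.780 to 1.18 ± 0.462. Cldn15, its partner among the pore claudins, was at 1.81 early and 1.82 late (edgeR adjusted p = 0.858). Cldn7 (-0.45, edgeR adjusted p = 0.0614), Tjp1 (0.18, 0.266) and Ocln (0.24, 0.310) did not pass. Of the 4 early libraries 2 are ENR+CV, so time and the change of medium cannot be told apart. The early libraries include 3 of the 5 that list more genes, and the late ones 0; 3 of 4 early libraries carry the number 1 and 3 of 4 late ones the number 2, whose meaning the labels do not give. The part of these sets in the result was not tested. With the number as a term the same 5 genes passed, with Cldn4 at 1.97 and Cldn2 at -0.94 (edgeR adjusted p = 0.0309). Only day 0 replicate 2 and day 6 replicate 1 carry the rarer number of their side, so number and time remain largely mixed in that fit.

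The share of the pore claudins among the claudins can be read within a library, where scaling drops out. Cldn2 and Cldn15 together made up 44.4% and 35.5% of the UMIs of the 6 claudins in the ENR+CV libraries. In the controls the share was 36.1%, 31.3%, 23.0%, 22.7% and 14.9% from day 0.25 to day 4, and 18.0% and 14.4% at day 6. With KPT-330 it was 32.6%, 33.8% and 28.7% at days 0.25, 1 and 2, 29.6% and 27.3% at day 3, 17.2% at day 4, and 21.8% and 19.2% at day 6. The share was lower at later days in both conditions and higher with KPT-330 at 5 of 6 time points. Counts at the 3′ end depend on each gene's transcript, so the share compares libraries and not genes.

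**Figure D2:**
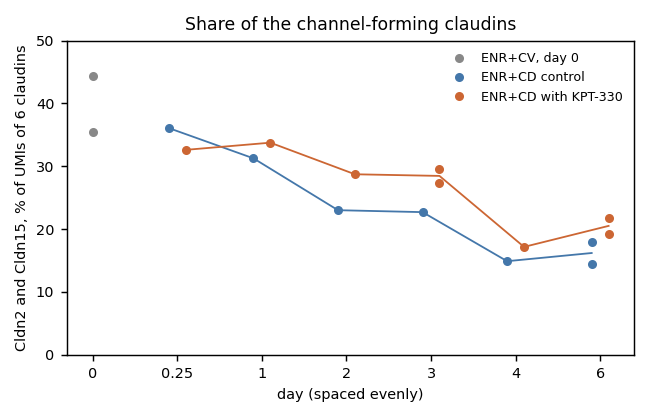
Share of Cldn2 and Cldn15 in the UMIs of the 6 claudins (y axis, %) by day (x axis, spaced evenly), 1 point per library with lines through the means. The controls run from 36.1% at day 0.25 to 14.4% and 18.0% at day 6, and the KPT-330 points lie above them from day 1.

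Cell types were rebuilt by clustering without these genes and named with "-like" from marker lists that the study derived on these samples. Among those lists, Cldn2 is a marker of early enterocytes, Cldn3 of enterocytes and goblet cells, Cldn4 of Paneth cells, and Cldn15 and Cldn23 of enterocytes, so the levels below are a description. Of the 3 clusters that scored highest for enterocytes, the Apoa4-led one had 4 enterocyte markers among its top 10 genes. The Fabp1-led one had 1, beside 3 of early enterocytes, and is given no type name here, and the Mbl2-led one held 165 cells. Stem I-like cells join clusters of 2045 and 354 cells, the smaller with 2 stem I and 2 early Paneth markers in its top 10. The part of that smaller cluster in the stem I-like values was not tested. Levels are means ± SD over untreated libraries with at least 20 cells of the type. The types reached that number on different days. Early enterocyte-like means cover days 0 to 2, Apoa4-led and Paneth-like means days 2 to 6, and stem I-like means days 1 to 6. Differences between types in these means are therefore mixed with differences between days.

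Cldn23, Cldn15 and Cldn3 were highest in the Apoa4-led cluster. Cldn23 was at 2.10 ± 0.493 UMIs per 10000 there (n = 5, 1.49 to 2.85) and at 1.03 ± 0.327 in the Fabp1-led cluster (n = 7, 0.415 to 1.41), ranges that meet nowhere. In the other types its mean was at most 0.446, in Paneth-like cells, and lowest in stem II-like cells, at 0.0986. Cldn15 was at 5.10 ± 0.727 in the Apoa4-led and 3.90 ± 1.19 in the Fabp1-led cluster, which overlap, then at 2.68 ± 0.882 in early enterocyte-like and 2.40 ± 0.288 in early Paneth-like cells. It was lowest in stem I-like (0.786 ± 0.307, n = 6) and enteroendocrine-like cells (0.449 ± 0.347, n = 8). Cldn3 was at 12.0 ± 3.13 in the Apoa4-led cluster, 8.52 ± 1.60 in early Paneth-like and 8.42 ± 2.87 in Fabp1-led cells, and lowest in enteroendocrine-like cells, at 2.44 ± 0.951. The neighbours in that order overlap.

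Cldn4 and Cldn2 had other leading types. Cldn4 was highest in Paneth-like cells, at 8.22 ± 2.69 (n = 5), followed by early Paneth-like cells at 5.47 ± 2.23 and the Apoa4-led cluster at 5.02 ± 1.48. It was lowest in stem III-like cells, at 1.29 ± 0.599 (n = 9) and the ranges of the 3 leading types overlap. Cldn2 was highest in early enterocyte-like cells, at 3.66 ± 0.754 (n = 5), and in the Fabp1-led cluster, at 3.05 ± 1.39. It was at 1.90 ± 0.545 in the Apoa4-led cluster and lowest in stem I-like cells, at 0.412 ± 0.136. The pore claudins thus had both of their lowest means in stem I-like and enteroendocrine-like cells, where Cldn2 was at 0.696 ± 0.912. In the day 2 control alone, Cldn2 was at 2.09 in the Fabp1-led cluster, 1.71 in the Apoa4-led cluster and 0.515 in stem I-like cells.

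The genes of the junction core varied less between types. Cldn7 ranged from 1.42 ± 0.303 in Paneth-like to 2.95 ± 0.561 in early enterocyte-like cells. F11r ranged from 0.974 ± 0.576 in early secretory-like to 2.27 ± 0.923 in stem I-like cells. Ocln lay between 0.808 ± 0.0850 in early Paneth-like and 1.13 ± 0.0698 in stem I-like cells. Tjp1 ran from 0.668 ± 0.185 in the Apoa4-led cluster to 1.30 ± 0.290 in stem I-like cells. Set against stem III-like cells of the same 9 untreated libraries, the Apoa4-led, Fabp1-led and Mbl2-led clusters joined were higher in 9 of 9 for Cldn23 (log2 ratio 2.83 ± 0.60), Cldn4 (1.53 ± 0.80), Cldn3 (1.35 ± 0.35), Cldn15 (1.20 ± 0.34) and Cldn2 (0.85 ± 0.67). Tjp1 was lower in 9 of 9 (-0.38 ± 0.22), and Cldn7 was at 0.08 ± 0.47.

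**Figure D3:**
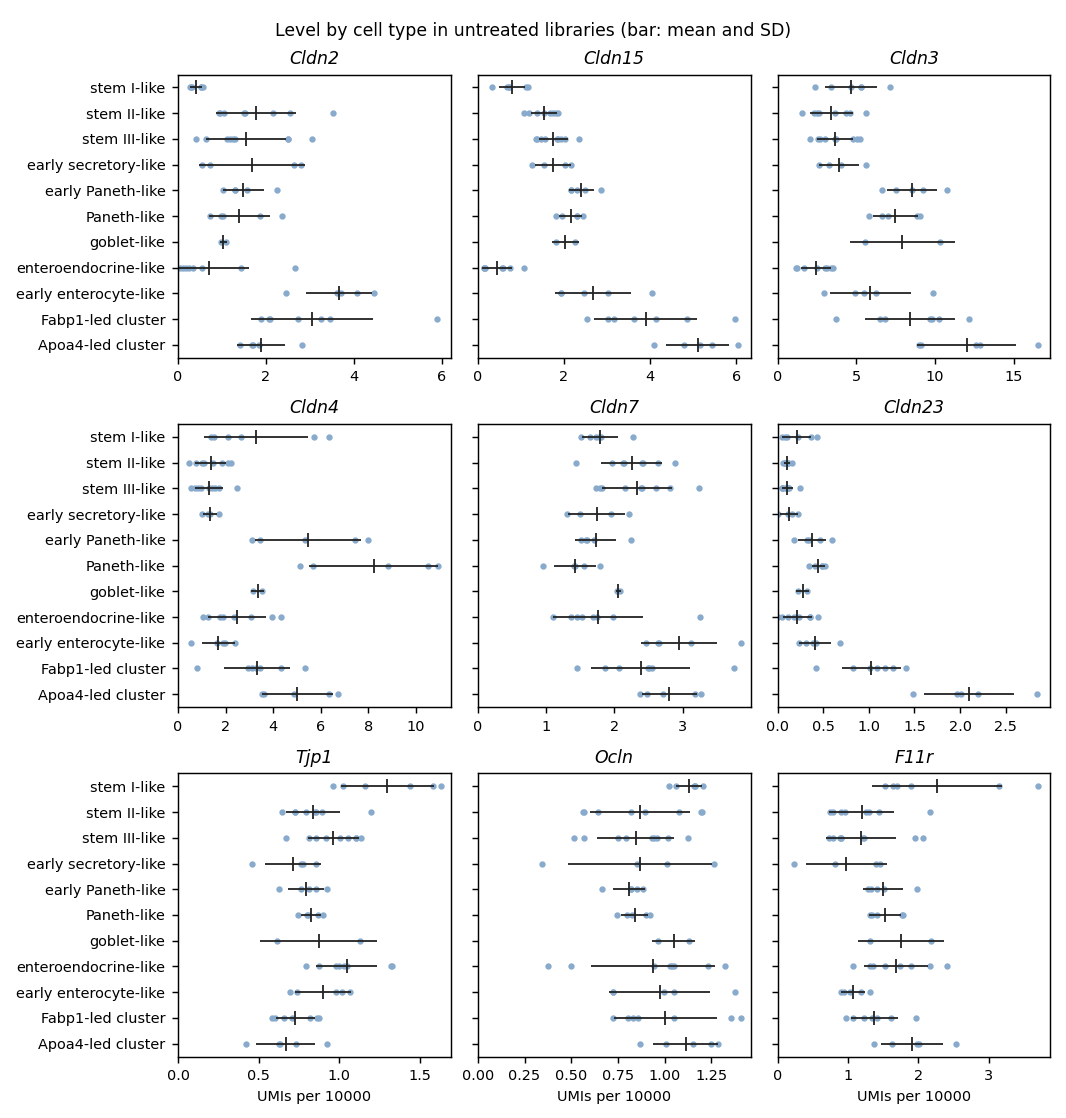
Level of each gene (UMIs per 10000 UMIs) in each rebuilt cell type of the untreated libraries; points are libraries and bars the mean and SD. Cldn15 and Cldn23 are highest in the Apoa4-led cluster, at means of 5.10 and 2.10, and Cldn4 in Paneth-like cells, at 8.22.

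The makeup of the libraries differed between conditions. The Apoa4-led cluster held 5.73% of control and 11.1% of KPT-330 cells at day 2, 3.32% against 17.9% and 16.6% at day 3, and 2.46% against 10.5% at day 4. At day 6 it held 5.13% and 1.81% of control cells and 4.37% and 1.60% of KPT-330 cells, so the conditions overlapped. The Fabp1-led cluster held 20.1% and 26.8% at day 2, and 6.04% against 9.86% and 14.3% at day 3. The Mbl2-led cluster had 134 of its 165 cells in day 6 KPT-330 replicate 1. Paneth-like and early Paneth-like cells together held 41.8% and 62.7% at day 4 and 48.2% and 66.4% at day 6. Stem I-like cells held 26.3% of control and 8.06% of KPT-330 cells at day 3. To hold the makeup constant, the level within each type was weighted by its share of UMIs, averaged over both conditions. Types with fewer than 20 cells in either condition at a time point were left out. The unweighted levels beside these values cover all cells, so the 2 differ in the cells used as well. At such fixed shares Cldn4 was higher with KPT-330 at 6 of 6 time points, with a mean log2 ratio of 0.43 ± 0.28 (SD over 6 time points) against 0.58 in the unweighted levels. Cldn23 was at 0.33 ± 0.30 (0.72 unweighted), Cldn15 at 0.24 ± 0.21 (0.54) and Cldn2 at 0.24 ± 0.19 (0.51), each higher at 5 of 6 time points. The log2 ratio of these claudins was thus smaller at fixed shares, whereas F11r was at 0.28 ± 0.21 against 0.21. Ocln (-0.03), Cldn3 (-0.07), Tjp1 (-0.07) and Cldn7 (-0.10) were near 0.

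**Figure D4:**
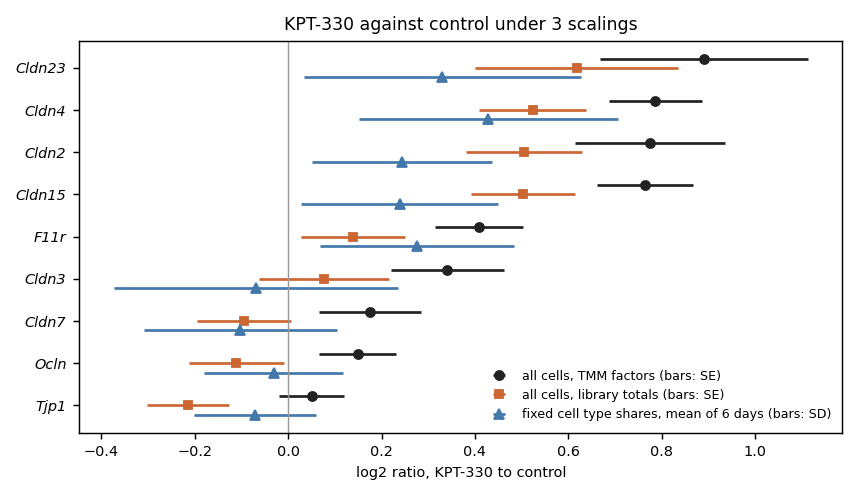
Log2 fold change of each gene with KPT-330 against control (x axis) for the 9 genes (y axis). Circles are the edgeR fit with TMM factors and squares the fit with library totals, both with SE bars, and triangles the mean over 6 time points at fixed cell type shares, with SD bars. Cldn23, Cldn4, Cldn2, Cldn15 and F11r lie right of 0 in all 3 measures, and Cldn7, Ocln and Tjp1 lie left of 0 in the measures other than TMM.

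Within cell types, Cldn4 was the gene most often called. It rose in 4 of the 7 types that could be fitted, stem I-like, stem III-like, early Paneth-like and enteroendocrine-like cells, each a separate edgeR fit over that type's summed counts. In stem I-like cells the controls were at 1.50, 2.10, 1.38 and 2.64 UMIs per 10000 at days 1, 2, 3 and 4, and at 5.71 and 6.33 at day 6. With KPT-330 it was at 2.52, 2.91, 2.95 and 3.00 (both day 3), 6.25 and 7.47. KPT-330 was higher at 5 of 5 time points (log2 fold change 0.82, SE 0.132, edgeR adjusted p = 0.000104). Stem I-like cells called 2 of the 9 genes, with 4.31% of all genes called. In stem III-like cells the controls were at 1.44, 0.558, 0.963 and 0.855 at days 0.25, 1, 2 and 3 and the KPT-330 libraries at 2.43, 1.42, 1.39 and 2.03, higher at 4 of 4 (0.95, SE 0.177, edgeR adjusted p = 0.00981). That call was lost without the day 0.25 control or KPT-330 library (1.08 and 1.08, edgeR adjusted p = 0.0665 and 0.0712) or those of day 1 (0.83 and 0.84, 0.117 and 0.103). Stem III-like cells called 1 of 8 genes tested, Cldn23 having too few counts, with 0.697% of all genes called.

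In enteroendocrine-like cells Cldn4 was at 1.24, 1.91, 2.36 and 3.06 in the controls at days 1 to 4, and at 4.34 and 3.97 at day 6. With KPT-330 it was at 1.77 and 3.56 at days 1 and 2, at 4.40 and 4.06 at day 3, at 5.16 at day 4, and at 4.67 and 4.68 at day 6, again above every control of the same day (0.65, SE 0.123, edgeR adjusted p = 0.00725; without the day 3 control 0.57, 0.0679). It was the 1 gene of 9 called there, with 1.86% of all genes called. In early Paneth-like cells, where 2 of 9 genes and 3.94% of all genes were called, Cldn4 controls were at 3.09, 3.46 and 5.35 at days 2, 3 and 4 and at 7.45 and 7.98 at day 6. With KPT-330 the level was 4.93, then 4.43 and 5.54, then 12.4, then 8.48 and 8.42, above the controls at 4 of 4 time points (0.70, SE 0.139, edgeR adjusted p = 0.00512). The other call in early Paneth-like cells was Cldn2, with controls at 1.02, 1.29 and 1.31 and, at day 6, 2.25 and 1.57. Its KPT-330 libraries were at 1.38 at day 2, 1.38 and 2.21 at day 3, 2.12 at day 4 and 3.20 and 3.19 at day 6 (0.76, SE 0.133, edgeR adjusted p = 0.00156). F11r was the other call in stem I-like cells, with controls at 1.63, 1.52, 1.69, 1.90 and, at day 6, 3.15 and 3.70. Its KPT-330 libraries were at 1.89, 1.96, 2.17 and 2.20, 3.36 and 4.47, above the controls of the same day (0.50, SE 0.113, edgeR adjusted p = 0.00621). Without the day 4 control or KPT-330 library it no longer passed (0.40 and 0.41, edgeR adjusted p = 0.0810 and 0.0828).

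In the other 3 types 0 of 9 genes were called in the main edgeR fits or by DESeq2. Without the filter on low counts edgeR called 1 in the Apoa4-led cluster, 1 in the Fabp1-led cluster and 2 in Paneth-like cells. In the fits with the filter, all genes called were 2.88% in the Apoa4-led cluster, 1.68% in the Fabp1-led cluster and 2.46% in Paneth-like cells. More genes were called in all 3 types without the filter, as counted in the last section. In Paneth-like cells Cldn4 controls were at 5.68, 5.13 and 10.5 at days 2, 3 and 4 and 8.84 and 10.9 at day 6. With KPT-330 the level was 9.62, then 5.86 and 8.51, then 15.3, then 7.64 and 11.3, overlapping at day 6 (log2 fold change 0.46, edgeR adjusted p = 0.112). In the Apoa4-led cluster the order was opposite, with controls at 4.87, 3.62 and 6.73 at days 2, 3 and 4 and 3.54 and 6.33 at day 6. Its KPT-330 libraries were at 2.85, 0.762 and 2.18, 4.57, and 4.53, higher at 0 of 4 time points by the means (-0.65, edgeR adjusted p = 0.181). In the Fabp1-led cluster Cldn15 was at 0.51 (edgeR adjusted p = 0.121), Cldn2 at 0.46 (0.105) and Cldn4 at -0.11. Cldn3, higher with KPT-330 over all cells, had lower KPT-330 means at 4 of 4 time points in the Paneth-like (-0.31, edgeR adjusted p = 0.224), early Paneth-like (-0.18, 0.481) and Apoa4-led fits (-0.24, 0.551). In Paneth-like cells its controls were at 5.83, 6.63 and 8.86 at days 2, 3 and 4 and 6.98 and 9.06 at day 6, and its KPT-330 libraries at 5.53, 3.77 and 5.06, 6.82, and 4.86 and 6.18.

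After the opposite order of Cldn4 in the Apoa4-led cluster had been seen, the cluster was compared with each other type in an edgeR fit over both types with a term for each library, so these differences restate that pattern and are a description. The KPT-330 effect on Cldn4 was higher than in the Apoa4-led cluster by 1.86 on the log2 scale in stem I-like cells, 2.20 in stem III-like, 1.44 in early Paneth-like, 1.41 in enteroendocrine-like, 1.14 in Paneth-like and 0.80 in Fabp1-led cells. The stem III-like and Fabp1-led pairs had 7 libraries each, the stem I-like pair 9 and the others 10. In the pairs of 7 libraries only days 2 and 3 held both conditions. These fits called Cldn4 in all 6 pairs and Cldn23 in the pair with early Paneth-like cells (0.81). The share of all genes called was 1.22% for stem I-like, 0.242% for stem III-like, 2.01% for early Paneth-like, 0.675% for enteroendocrine-like, 1.63% for Paneth-like and 0.215% for Fabp1-led cells. limma on the differences within each library called 0 of these 9 genes in any pair, with adjusted p for Cldn4 from 0.167 to 0.902. Without the day 3 KPT-330 replicate 1 library, in which Cldn4 was lowest at 0.762, the other 5 Cldn4 differences, 0.73 to 1.60, still passed. The stem III-like difference was then 1.23, with day 2 the only KPT-330 library left in that pair. Markers of Paneth cells summed to 10.1 to 36.5 UMIs per 10000 in the Apoa4-led cells of the controls and 11.6 to 237 in those with KPT-330; their part in the Cldn4 values was not tested.

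**Figure D5:**
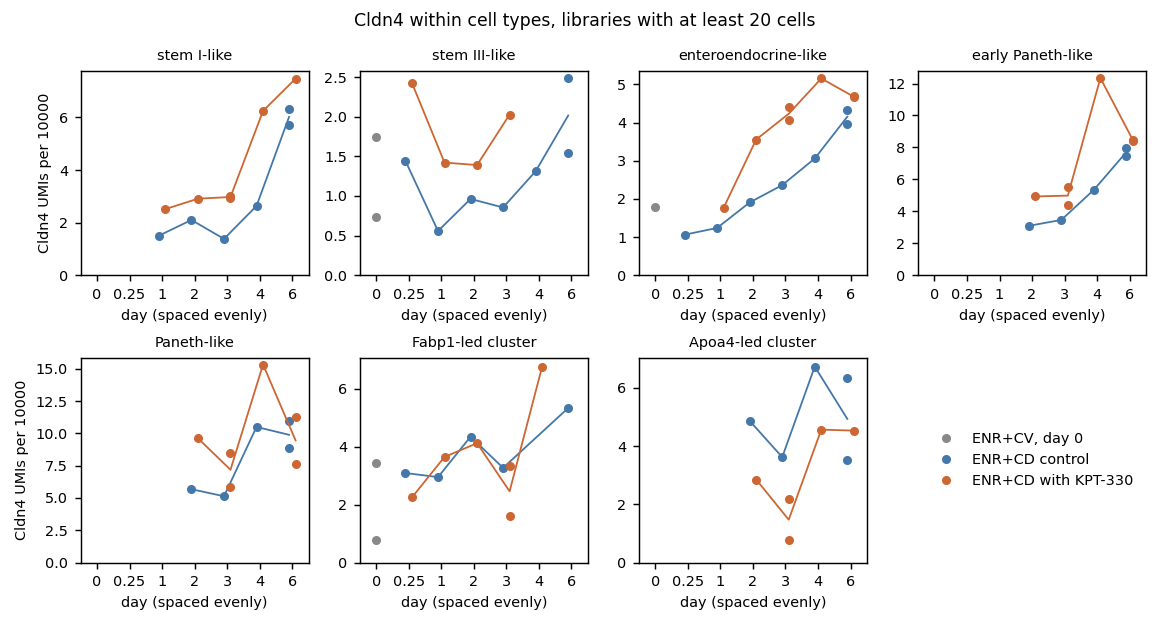
Cldn4 level (y axis, UMIs per 10000 UMIs) by day (x axis) within each fitted cell type, 1 point per library with at least 20 cells of the type, controls and KPT-330 in separate colours with lines through the means. KPT-330 points lie above the controls of the same day in stem I-like, stem III-like, enteroendocrine-like and early Paneth-like cells, and the KPT-330 means lie below in the Apoa4-led cluster.

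Genes around the claudins in the junction were read from lists, whose counts stand beside the 29.6% of all genes called with KPT-330. Of 18 other claudins, 3 had enough counts for the all-cell test with KPT-330, and Cldn25 rose (0.30, edgeR adjusted p = 0.0128) while Cldn12 (0.05) and Cldn8 (-0.42) did not pass. Of 6 other junction membrane proteins tested, 3 rose: Igsf5 (0.65), a junctional adhesion molecule, Lsr (0.33), the tricellular protein angulin-1, and Cxadr (0.42), a relative of F11r. Of 17 plaque and polarity genes, 4 rose and 4 fell, among them the polarity protein Crb3 (0.50) and the scaffold Mpdz (-1.26). Of 9 adherens junction genes, Cdh17 (0.66), the intestinal cadherin, and Pvrl2 (0.46), a nectin, rose. Of 6 desmosome genes, 4 rose, led by Perp (0.57), Dsc2 (0.47) and Jup (0.25). Of 9 transcription factors linked to claudin genes, Elf3 (0.42), Klf4 (0.76) and Cdx1 (0.29) rose. The list medians, 0.05, 0.26, 0.07, 0.12, 0.30 and 0.11 in this order, stand beside 0.003 over all genes. Under library totals, where 452 of all 11777 genes were called up and 4672 down, the lists moved with them. The calls were 0 up for other claudins, 1 up (Igsf5, 0.38) for membrane proteins, and 0 up and 6 down for plaque genes. For adherens junction genes there was 1 up (Cdh17, 0.39), and for desmosome genes 1 up (Perp, 0.30), while Jup turned to -0.01. For the transcription factors there were 1 up (Klf4, 0.49) and 2 down.

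Over the untreated time course the lists gave calls in both directions, beside 48.7% of all genes called. Of the membrane proteins 4 rose, with Ildr1 (1.44) and Marveld2 (0.54), both proteins of tricellular junctions, and Cxadr (0.90). Of the plaque genes 5 rose and 3 fell, with Cgnl1 (2.60), paracingulin, highest, and Tjp3 (-0.75) and Ybx3 (-0.95) falling. Among adherens genes Pvrl3 (-1.15) and Cdh17 (-1.36) fell and Pvrl2 (0.52) rose, and of the desmosome genes Pkp2 (-0.60) fell. Among the transcription factors Gata4 (-0.72) and Hnf4a (-0.96) were among 5 that fell, and Klf4 (1.41) rose. Of the other claudins 0 of 3 were called by edgeR. Under library totals the rises of Pvrl2 (edgeR adjusted p = 0.0671) and Crb3 (0.0957) no longer passed. Within types, most genes of these lists were not called. Igsf5 and Klf4 were called up in early Paneth-like cells, beside 3.94% of all genes. In stem I-like cells Lsr and Cxadr were called up and Vdr and Hnf4a down, beside 4.31% of all genes. Klf4 was called up and Pard3 down in enteroendocrine-like cells (1.86% of all genes), and Pard6b down in the Apoa4-led cluster (2.88%).

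Across the 17 libraries, the gene whose log2 level was most like that of Cldn4 was Krt18, a keratin of simple epithelia (Pearson r = 0.973 among 7133 candidates), then Nupr1 (0.972). For Cldn15 they were Rnf186 (0.957) and Abcg5 (0.935), a sterol transporter of enterocytes, and for Cldn2 Nostrin (0.956) and Golm1 (0.921). Cldn3 was nearest to Ubald1 (0.964) and Tex264 (0.960), and Cldn23 to Peli1 (0.957) and Dyrk2 (0.957). The other values were, for Ocln with Ctnnd1 (0.903), the p120 catenin, and Arl5b (0.889), for F11r with Jtb (0.938) and Btg1 (0.935), for Cldn7 with Bloc1s1 (0.884) and Ndufb4 (0.878), and for Tjp1 with Tmem131 (0.855) and Rnf14 (0.849). Among the 9 genes, r was 0.94 for Cldn3 with Cldn23, 0.91 for Cldn4 with F11r and 0.88 for Cldn3 with Cldn4, and 0.06 for the pore claudins Cldn2 and Cldn15. The libraries share time points, depth and cell type shares, so these values are descriptions.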

How the data were processed

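Single-cell RNA of 17 organoid libraries was counted. The authors demultiplexed the reads (bcl2fastq), aligned them to mm10 (STAR) and collapsed them by barcode and UMI (Drop-seq tools), and the deposited UMI counts are not normalized. Of 26229 barcodes they kept 19877 cells, by limits on genes, UMIs and mitochondrial share and after removing doublets, so no doublet caller was run here. The gene annotation behind the counts is not given in the sources used here.

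Counts of the kept cells, 3458887 to 12433109 UMIs per library, were summed per library, or per library and cell type, since cells are not replicates. They were tested in R 4.3.3 with edgeR 4.0.16 (filterByExpr with a minimum count of 10, TMM factors, glmQLFit and glmQLFTest, time point as a factor, Benjamini-Hochberg adjustment over all genes tested, threshold 0.05). A library entered a cell type fit with at least 20 cells of the type, and a type was fitted with at least 4 time points of both conditions. Level ratios used a pseudocount of 0.1 UMIs per 10000. Cell types were rebuilt with Seurat 5.3.0 and sctransform 0.4.2 (3000 variable genes, from which 19 junction genes were removed, 9 components, 20 neighbours, resolution 0.45, giving 17 clusters) and named from 100 marker genes, 10 per type, of the study's own lists. Cell types are therefore rebuilt and may differ from the study's. The Mbl2-led cluster, with 134 of 165 cells from day 6 KPT-330 replicate 1, was not fitted. The tests were tested on simulated counts first.

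Alternatives were DESeq2 1.42.0, its size factors in edgeR, no filter, limma 3.58.1 on single-cell means, other cells and labels, left-out libraries, a replicate block and library totals. All 9 genes are described. From each other list the counts of calls were given, with at most the 3 called genes of smallest p by name, and the 2 nearest genes by Pearson r came from genes with a mean CPM of at least 20. The genes and the lists were chosen with earlier results of these data known. Motifs and figures were made in Python 3.11.15 with matplotlib 3.10.9. Intervals and p-values do not cover variation between mice, which the labels do not name.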

Additional observations from a re-analysis of the deposited data

Results flagged for a closer look

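The KPT-330 effect on Cldn4 in the Apoa4-led cluster stood apart from that in each of the 6 other fitted types by the edgeR interaction, a comparison chosen after the pattern had been seen. It was higher than in the Apoa4-led cluster by 0.796 on the log2 scale in the Fabp1-led cluster, 1.14 in Paneth-like, 1.44 in early Paneth-like, 1.41 in enteroendocrine-like, 1.86 in stem I-like and 2.20 in stem III-like cells. The KPT-330 mean lay below the control mean at 4 of 4 time points in the Apoa4-led cluster, whose own fit was not called (-0.65, edgeR adjusted p = 0.181). It also lay below at 3 of 4 in the Fabp1-led cluster (-0.11), and at 1 of 4 in Paneth-like cells. The KPT-330 mean was above at every fitted time point in stem I-like, stem III-like, early Paneth-like and enteroendocrine-like cells. Cldn23 was also called by the interaction in early Paneth-like cells, at 0.809, but did not show the opposite order of Cldn4. Its KPT-330 mean was higher at 2 of 4 time points in the Apoa4-led cluster and at 3 of 4 in early Paneth-like cells. The fits treat both types of a library as having the same spread, and limma on within-library differences called 0 of the 7 differences. The stem III-like and Fabp1-led pairs had 7 libraries each, with both conditions only at days 2 and 3. Without day 3 KPT-330 replicate 1 the stem III-like difference was 1.23, with day 2 the only KPT-330 library left in that pair.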

How the results depend on the processing

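With KPT-330 over all cells, 4 to 7 of the 9 genes were called under every alternative: 5 with RLE size factors, 6 with DESeq2, 6 without the filter, 5 with all barcodes, 6 with cells of at least 1000 genes, 4 with library totals, 4 with limma, 7 with the replicate block and 5 to 7 without single libraries or time points, where Cldn3 lost its call in 17 of 21. Directions turned under library totals for Cldn7 (-0.094), Tjp1 (-0.21) and Ocln (-0.11), and under limma for Cldn3 (-0.0071), Cldn7 (-0.12), Tjp1 (-0.10) and Ocln (-0.082). The interaction with stage stayed at 0 of 9 genes under all its alternatives, while all genes called were 54 with DESeq2, 349 without the filter and 68 with the replicate block. The time course called 5 or 6 of 9, and Cldn15 ran from -0.10 to 0.14 without single libraries, turning sign without ENR+CV day 0 replicate 1 (-0.02) or 2 (-0.10) or the day 3 control (-0.01).

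Within types, without the filter 1 gene was called in the Apoa4-led and 1 in the Fabp1-led cluster, 2 in Paneth-like and 2 in enteroendocrine-like cells, and under library totals 1 in Paneth-like cells. Stem I-like cells gave 4 with labels by cell score and 4 with log-normalized clusters. The share of all genes called under those labels is not given here, so these counts cannot be read against it. Stem I-like cells gave 1 to 3 without single libraries. There F11r lost its call without the day 4 control (0.40, edgeR adjusted p = 0.0810) or KPT-330 library (0.41, 0.0828). Stem III-like cells gave 0 with labels by cell score (Cldn4 0.65, edgeR adjusted p = 0.171) and 0 to 1 without single libraries, with Cldn4 lost without any of the day 0.25 or day 1 libraries. Enteroendocrine-like cells gave 0 to 1, with Cldn4 lost without the day 3 control (0.57, edgeR adjusted p = 0.0679). Early Paneth-like cells gave 2 or 3. All 27 alternatives of the levels between types and all 18 at fixed shares stayed within the spread. Log-normalized clusters did not give Paneth-like or stem III-like cells enough time points, and at least 50 cells was not run for the Apoa4-led, Fabp1-led and stem III-like cells for the same reason.

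With the replicate block, 7 genes were called over all cells (Ocln at 0.19, edgeR adjusted p = 0.0405), 3 in the Fabp1-led cluster and 2 in Paneth-like cells; all genes called went from 219 to 805 in Paneth-like, 332 to 784 in early Paneth-like, 157 to 269 in enteroendocrine-like, 54 to 131 in stem III-like and 111 to 209 in Fabp1-led cells. The labels do not say whether the numbers mark a shared culture. The differences of replicate 1 and 2 correlated over 7182 genes by 0.62 between day 6 control and KPT-330, libraries that the block joins. They correlated by 0.16 between day 0 and day 6 controls and by -0.09 between day 3 and day 6 KPT-330 libraries, which it does not join. Whether the numbers pair the libraries was not tested. Without the filter the counts of all genes were 339 in the Apoa4-led cluster (207 with it), 231 in Fabp1-led, 470 in Paneth-like, 555 in early Paneth-like, 470 in enteroendocrine-like and 135 in stem III-like cells. DESeq2 gave 66 in Fabp1-led, 224 in stem I-like (358 in edgeR) and 20 in stem III-like cells. Over all cells limma gave 6102 genes against 3481, and leaving out day 3 or day 4 gave 1998 or 2293. Library totals gave 356 in Paneth-like cells, and shifted the median of all genes by -0.14 there and -0.16 in early Paneth-like cells. Library totals, the replicate number in the time course and the interaction with cell type were chosen after seeing the data. Why these values moved was not tested. Few libraries per type limited the within-type fits.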
